A study of Mus musculus with 4 samples.

Results

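The SLAM family receptors and their SAP adaptors were examined in both lymph nodes that drain the pancreas of the NOD mouse, an inbred strain that develops autoimmune diabetes spontaneously. The set holds 9 genes of the 13401 with a symbol that were tested: the adaptor genes Sh2d1a and Sh2d1b1 and the receptor genes Slamf1, Slamf6, Slamf7, Cd84, Ly9, Cd244 and Cd48. Members were found as array probes whose transcript maps to these symbols, which gave 15 probes, and Cd244 was matched through its current symbol Cd244a. The family was chosen by the measured log2 ratio of Sh2d1a, which stood among the largest increases in the gastric node. That ratio is therefore a description with no test, and the other members entered by family name.

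RNA came from the gastric node, which the labels call the left pancreatic node, and from the pancreatico-duodenal or right pancreatic node. The animals were 4 female NOD mice aged 12 weeks, for which the labels name no treatment, and 1 two-colour Agilent array per mouse compared its nodes. Gastric node RNA carried the red dye Cy5 and pancreatico-duodenal node RNA the green dye Cy3. Each log2 ratio is gastric over pancreatico-duodenal node, so 0 means equal levels and values below 0 mean less signal in the gastric sample. No array had exchanged dyes, so node and dye cannot be told apart for any gene, and whole nodes were homogenised, so fewer cells of a type and less RNA per cell cannot be told apart either. The share of probes well above background was 67.1% to 71.4% in the gastric channel and 59.6% to 62.6% in the other, and no spot was saturated. Lymphocyte markers were well measured, with 14 of 15 listed T cell genes and 12 of 12 listed B cell genes measured. Mouse 3 stood apart in pancreatic tissue genes: its median over 12 exocrine pancreas genes was -4.75, whereas mouse 1 had -0.28, mouse 2 had 0.22 and mouse 4 had 0.85. The number of arrays, 4, limits the precision.

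SLAM receptors are immunoglobulin superfamily proteins on blood cells, and most of them bind a copy of themselves on a neighbouring cell. Tyrosine motifs in their tails recruit the small adaptor SAP, encoded by Sh2d1a, which brings in the kinase Fyn, or the related adaptor EAT-2, encoded by Sh2d1b1 and known from natural killer and myeloid cells. Without SAP, T cells fail to hold on to B cells, germinal centres do not form well and natural killer T (NKT) cells do not develop. SAP deficiency in people is X-linked lymphoproliferative disease.

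Of the 9 genes Sh2d1a was past the threshold, with a higher gastric level. No member was past it as lower, and the other 8 did not pass. The threshold was an adjusted p under 0.05 in limma, adjusted over all 21320 genes and unnamed transcripts tested. In that comparison 3.09% of all features were called higher and 4.45% lower, 7.54% in all. At an unadjusted p under 0.05 there were 3 members, Sh2d1a, Sh2d1b1 and Slamf1, and 30.7% of all features. The median log2 ratio was 0.08 over the members and 0.03 over all features. At the level of probes, 1 of 14 kept member probes was called higher, that of Sh2d1a, against 2.99% of 27603 kept probes (4.92% were called lower, 7.92% in all). Since the choice of the family used this contrast, nothing is read from these counts.

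Sh2d1a was measured by 1 probe (transcript NM_011364). Its normalized log2 intensity in the gastric node was 10.81, 11.08, 10.74 and 10.86 in mice 1 to 4, and in the pancreatico-duodenal node 10.53, 10.42, 10.01 and 10.20. Every gastric value lay above every pancreatico-duodenal value. As the ratio of these values chose the family, this separation is a description and no support. The log2 ratios were 0.27, 0.65, 0.73 and 0.67, a mean of 0.58 ± 0.21 (SD, n = 4) or 1.49-fold. Mouse 1 had the smallest ratio, below the other 3, whose mean was 0.68 ± 0.04 (SD, n = 3). The raw mean signal of the spot was 2283 to 3035 in the gastric channel and 759 to 1000 in the other, far above the median spot of either channel (115 to 155 and 87.3 to 95.9). Sh2d1a had the mean ratio with rank 49 among all 21320 features and rank 21 among the 659 called higher. The 2270 features within 0.5 log2 units of its mean intensity had a median ratio of 0.03, and 9 of them, Sh2d1a included, reached its mean.

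Sh2d1b1, the EAT-2 gene, lay on the other side of 0. It was dim, with raw mean signals of 82.2 to 101 in the gastric and 69.1 to 82.9 in the pancreatico-duodenal channel, yet the scanner software called it well above background in both nodes of all mice. The log2 ratios were -0.36, -0.10, -0.13 and -0.19, below 0 in 4 of 4 mice. The mean of -0.20 ± 0.11 (SD, n = 4) did not pass (limma adjusted p = 0.0915), and its 95% interval ran from -0.34 to -0.05. Its size differed between settings: the mean was -0.22 with no background correction, -0.31 with a normexp offset of 16 and -0.59 for the scanner software's own ratio (limma adjusted p = 0.0922), and the cause was not tested. No probe was matched to its relative Sh2d1b2 by transcript accession.

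**Figure D1:**
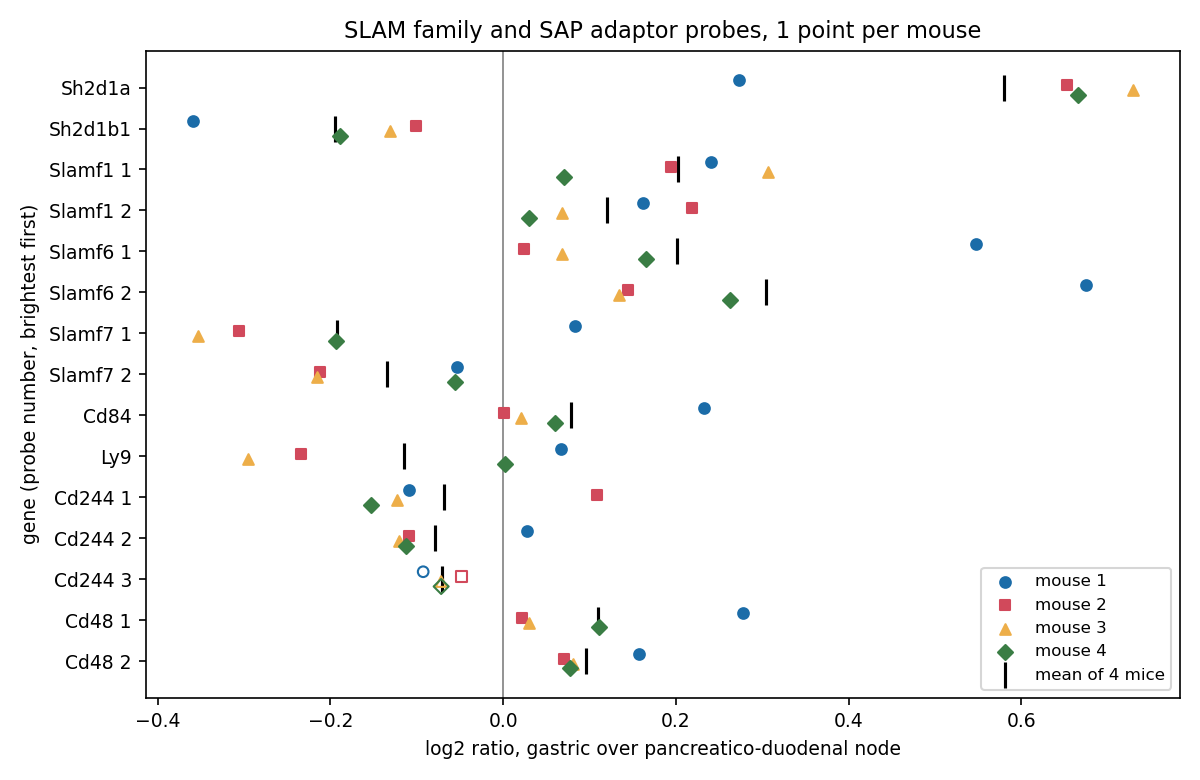
Log2 ratio of gastric over pancreatico-duodenal node for each of the 15 member probes, with 1 symbol per mouse and a bar at the mean of 4 mice. Probes of a gene are numbered from the brightest, and open symbols mark the Cd244 probe that was too dim to be kept. The Sh2d1a symbols of mice 2 to 4 lie near 0.7, while most receptor symbols lie between -0.4 and 0.3.

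Among the receptors, Slamf1 and Slamf6 had the highest mean ratios. Slamf1 encodes CD150, the founding SLAM receptor of T cells, B cells and macrophages. Its brighter probe read 0.24, 0.19, 0.31 and 0.07 in mice 1 to 4, above 0 in each, with a mean of 0.20 ± 0.10 (SD, n = 4; limma adjusted p = 0.0744; 95% interval 0.07 to 0.34). The dimmer Slamf1 probe was well above background on 4 gastric arrays and on none of the pancreatico-duodenal node. It was thus kept through the gastric channel alone, so its direction does not add to that of the brighter probe. Its measured mean ratio was 0.12 (95% interval -0.01 to 0.25). Taken on the means alone, a bound put its gastric level at least 1.05-fold higher. It is given without an error, and the 95% interval of the measured ratio includes 0. That bound sets the mean gastric level against the lowest signal called well above background on each array, or the probe's own if higher. It was taken after average intensities were also quantile-normalized between arrays, and it is open to dye bias.

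Slamf6 encodes Ly108, a receptor of T, B and natural killer cells whose signalling through SAP is known from follicular helper and NKT cells. Its brighter probe had log2 intensities of 11.38, 11.41, 10.99 and 11.49 in the gastric node and 10.83, 11.39, 10.92 and 11.32 in the pancreatico-duodenal node, and the ranges overlapped. The ratios were 0.55, 0.02, 0.07 and 0.17, a mean of 0.20 ± 0.24 (SD, n = 4; limma adjusted p = 0.214; 95% interval -0.03 to 0.44). Mouse 1 was far above the others, whose mean was 0.09 ± 0.07 (SD, n = 3). The other Slamf6 probe ran the same way, at 0.68, 0.14, 0.13 and 0.26 (adjusted p = 0.111 over all kept probes). In mouse 1 Slamf6 thus read higher than Sh2d1a on both probes, and in mice 2 to 4 lower.

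Cd48 and Cd84 had mean ratios of 0.11 and 0.08 with loess. Both were called higher with median centring, as were 12821 of all 21320 features, whose median ratio was 0.32 in that setting. Cd48 encodes a lipid-anchored protein without a signalling tail that serves as the ligand of CD244. Its brighter probe read 0.28, 0.02, 0.03 and 0.11, a mean of 0.11 ± 0.12 (SD, n = 4; limma adjusted p = 0.260; 95% interval -0.04 to 0.26), and the other probe 0.16, 0.07, 0.08 and 0.08. All 8 values of the gene were above 0, and mouse 1 was the highest on both probes. Cd84, a self-binding receptor of B cells, T cells and myeloid cells, read 0.23, 0.00, 0.02 and 0.06 (mean 0.08 ± 0.11, SD, n = 4; adjusted p = 0.377; 95% interval -0.06 to 0.22).

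Slamf7, Ly9 and Cd244 had mean ratios below 0. Slamf7 encodes CRACC, a receptor of natural killer cells, plasma cells and activated myeloid cells that works through EAT-2. Its brighter probe had log2 intensities of 8.82, 8.84, 8.10 and 8.54 in the gastric node and 8.74, 9.15, 8.45 and 8.73 in the pancreatico-duodenal node. The ratios were 0.08, -0.31, -0.35 and -0.19, a mean of -0.19 ± 0.20 (SD, n = 4; limma adjusted p = 0.178; 95% interval -0.40 to 0.01). The other Slamf7 probe was below 0 in 4 of 4 mice, at -0.05, -0.21, -0.22 and -0.06. Without mouse 1 Slamf7 passed as lower, at -0.28 ± 0.08 (SD, n = 3, limma adjusted p = 0.0364). With Sh2d1a that made 2 called members, beside 844 features called higher and 1323 lower of all 21320. Without mouse 2, 3 or 4 Slamf7 did not pass (limma adjusted p = 0.421, 0.362 and 0.371).

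Ly9, which encodes CD229 of T and B cells, read 0.07, -0.23, -0.30 and 0.00, 2 mice on either side of 0 (mean -0.11 ± 0.18, SD, n = 4; limma adjusted p = 0.348; 95% interval -0.30 to 0.07). Cd244, the receptor 2B4 of natural killer and cytotoxic T cells, read -0.11, 0.11, -0.12 and -0.15 on its brightest probe (mean -0.07 ± 0.12, SD, n = 4; adjusted p = 0.461; 95% interval -0.22 to 0.08). Mouse 2 was the high value there, whereas on the second Cd244 probe, at 0.03, -0.11, -0.12 and -0.11, it was mouse 1. The third Cd244 probe was well above background on 1 gastric array and on none of the other node, so no fold is given for it.

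**Figure D2:**
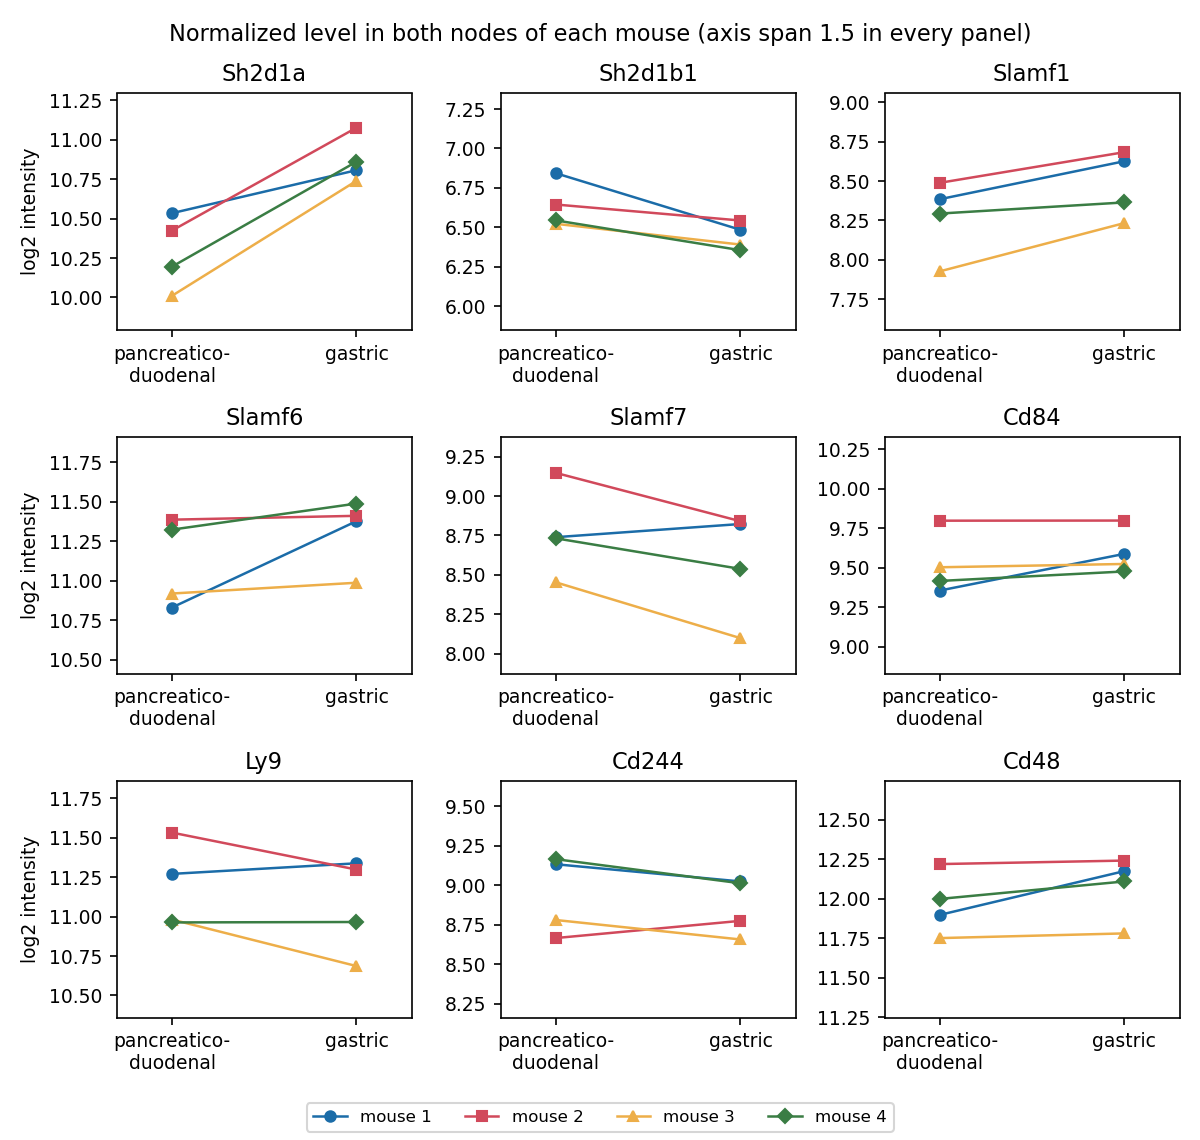
Normalized log2 intensity of the probe used for each gene in the pancreatico-duodenal and gastric node, joined by 1 line per mouse. All panels span 1.5 log2 units, so slopes can be compared between genes but levels cannot. The Sh2d1a lines climb by 0.27 to 0.73, whereas the lines of Cd84 and Cd48 are nearly flat except in mouse 1.

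The receptor ratios varied from mouse to mouse. Of the 7 receptor genes 5 had their highest ratio in mouse 1, namely Slamf6, Slamf7, Cd84, Ly9 and Cd48, and none had its lowest there. Both adaptor genes had their lowest ratio in mouse 1. Over all features, 38.2% had their highest and 29.0% their lowest ratio in that mouse. The 7 receptors had a median ratio of 0.23 in mouse 1, while mice 2 to 4 had 0.02, 0.02 and 0.06.

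The 7 receptor genes lie next to each other on 1 chromosome in the RefSeq gene table (GRCm38.p6), with Tma7-ps as the only other entry marked as protein coding between them, and Sh2d1a lies on the X chromosome. In the order along the chromosome, the mean ratios were -0.07 for Cd244, -0.11 for Ly9, -0.19 for Slamf7, 0.11 for Cd48, 0.20 for Slamf1, 0.08 for Cd84 and 0.20 for Slamf6. The 3 members with a mean below 0 are neighbours at 1 end and the 4 above 0 follow them. This is a description of 7 means that did not pass, with no test.

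Other members of the wider pathway were taken from a list of 24 SLAM relatives and signalling partners, of which 21 were measured. Of these 1 was called higher, 3 lower and 17 did not pass (9 at an unadjusted p under 0.05), with a median ratio of -0.02. The called-lower genes were Slamf8, a SLAM relative of myeloid cells without the SAP-binding motif, at -0.28 ± 0.06, the inhibitory docking protein gene Dok1 at -0.32 ± 0.12 and the adaptor gene Sh3bp2 at -0.38 ± 0.13 (SD, n = 4). Slamf8 read -0.23, -0.23, -0.34 and -0.33 in mice 1 to 4, a narrow spread (limma adjusted p = 0.0333). Ptpn11, the gene of the phosphatase SHP-2 that competes with SAP for receptor tails, was called higher at 0.28 ± 0.05, but its further probes read 0.13 and 0.00. The further Dok1 probe read -0.49. With median centring Slamf8, Dok1 and Sh3bp2 turned above 0, at 0.24, 0.25 and 0.065, yet stayed below the 0.32 median of all features in that setting. For Fyn, Nfkb1 and Sh2d1b2 of the list no probe was matched by transcript accession, so no value is given.

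The cells in which SLAM receptors act were described by lists of the same kind. Of 15 follicular helper T cell genes 2 were higher, none was lower and 13 did not pass. They were Tnfsf8, the CD30 ligand gene, at 0.40 ± 0.15 and Cd200, an inhibitory surface ligand gene, at 0.31 ± 0.12 (SD, n = 4). Il21r, the interleukin-21 receptor gene, was below 0 in 4 of 4 mice at -0.32 ± 0.18 (limma adjusted p = 0.0644), and is named after its values were seen. It ran against most of its list, in which 11 genes had a mean above 0 and 4 below. Of the 15 genes 8 had an unadjusted p under 0.05 in limma, beside 30.7% of all features. Of 14 T cell genes 2 were higher and 12 did not pass, Cd28, whose product gives the co-stimulatory signal, at 0.33 ± 0.15 and Cd3g, which encodes part of the T cell receptor complex, at 0.32 ± 0.14. The natural killer and NKT list had 1 of 14 higher, the receptor gene Klrd1 at 0.29 ± 0.11, and 1 lower, Cd1d1, which encodes the lipid-presenting molecule that NKT cells recognise, at -0.33 ± 0.15 (0.27 with median centring). None of 12 B cell genes passed in limma (2 at an unadjusted p under 0.05), with Cd79b at 0.07 ± 0.20 and Blnk at 0.08 ± 0.16. Without mouse 1, 4 genes each of the follicular helper and T cell lists were called higher, beside 844 of all 21320 features. Without mouse 2, 3 or 4 no gene of any list passed.

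Beside Sh2d1a, the T cell list had a mean ratio above 0 in 12 of 14 genes, beside 12382 of all 21320 features. Mouse 1, where Sh2d1a was lowest, had a T cell median of -0.10, while mice 2 to 4 had 0.14, 0.12 and 0.26. The follicular helper medians were 0.06, 0.11, 0.16 and 0.10. The summed T cell intensity was 95744 to 115760 in the gastric and 83196 to 102914 in the pancreatico-duodenal node, higher in the gastric node in 3 of 4 mice. The part of T cell number in the Sh2d1a ratio was not tested.

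Beside Slamf8 and the receptors of myeloid cells, 6 of 10 macrophage and monocyte genes were lower, none was higher and 4 did not pass, with a list median of -0.81. They included Adgre1, the gene of a macrophage surface receptor, at -1.36 ± 0.71, the scavenger receptor gene Cd163 at -1.26 ± 0.30 and the complement genes C1qb at -1.04 ± 0.26 and C1qa at -0.93 ± 0.22 (SD, n = 4). The further Adgre1 probe read -0.54. The median by mouse was -0.27, -0.79, -1.14 and -0.71, and the summed intensity was 47566 to 86894 in the gastric and 95638 to 132927 in the pancreatico-duodenal node. Mouse 1 had the smallest macrophage difference by list median, and Slamf7 read 0.08 there on its brighter probe and -0.05 on the other. By gene, Adgre1 and Cd163 were smallest in mouse 1. C1qa and C1qb were not, at -0.81 and -1.07 there and -0.78 and -0.80 in mouse 4. Slamf1 and Cd84, also found on myeloid cells, had means of 0.20 and 0.08 and lay above 0 in 4 of 4 mice. Mouse 1 also had the highest ratio for 5 of 7 receptors and for 38.2% of all features. The part of macrophage number in these ratios was not tested. None of 12 exocrine pancreas genes passed (0 at an unadjusted p under 0.05), with Cela3b at -0.77, 0.10, -5.62 and 0.69 in mice 1 to 4 and Prss3 at -0.71, 0.31, -5.64 and 0.71, and a further Prss3 probe at -0.91 on average.

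**Figure D3:**
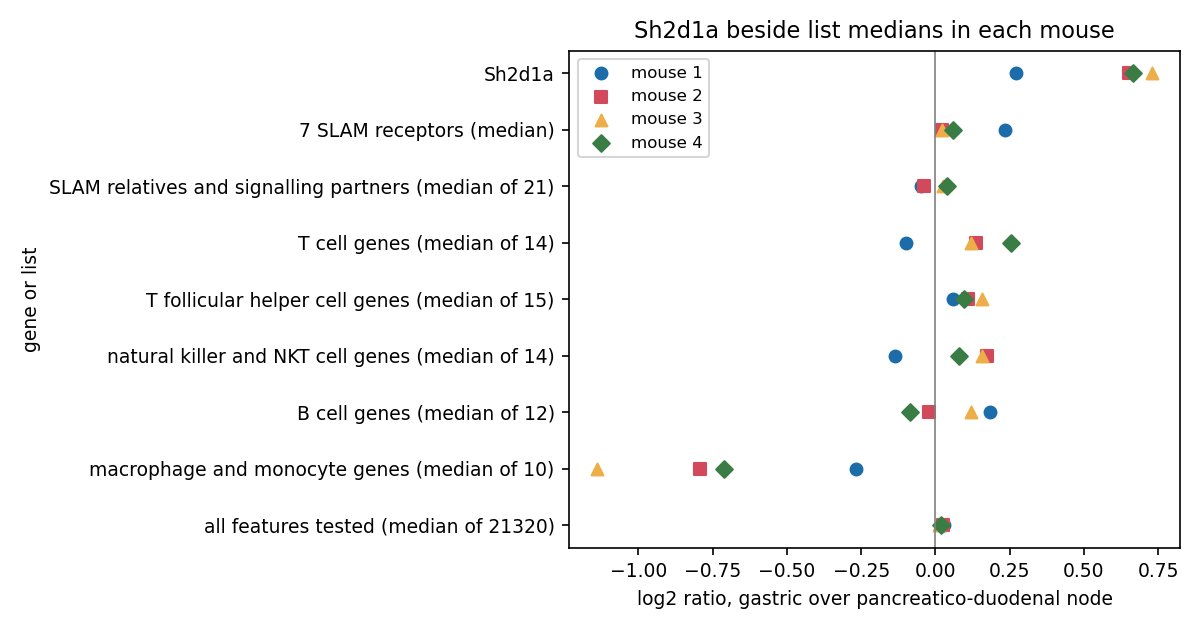
Log2 ratio of Sh2d1a in each mouse beside the median over the 7 receptor genes, over the fixed gene lists and over all features tested. The T cell median of mouse 1 lies left of 0 and those of mice 2 to 4 right of it, and the macrophage medians lie left of 0 in all 4 mice.

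The genes whose ratios by mouse lay nearest to those of Sh2d1a were Nsg2, Rps18, Haus4, Rack1 and Rps27, of 13191 named candidates. Likeness was the root mean square difference over the 4 mice, which was 0.05 for Nsg2 and 0.13 to 0.16 for the others. Nsg2, a gene of a neuronal vesicle protein, read 0.23, 0.66, 0.64 and 0.69. Rps18 and Rps27 encode ribosomal proteins and Rack1 a ribosome-bound scaffold, and these 3 lay near the top of the intensity scale, at a mean log2 intensity of 16.9 to 17.1 (Sh2d1a 10.6). Further probes read 0.21 for Rps18 and -0.08 for Rack1. With 4 mice many genes can lie this close, and no shared function is read from it.

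The mean ratio of Sh2d1a ranged from 0.53 to 1.11 over the 15 alternatives in processing. As its ratio chose the family, this range is a description. The count of called members was 0 without mouse 2, 3 or 4, where at most 3 features of the whole array passed. It was also 0 with the scanner software's ratio or the authors' series table. With those ratios 477 and 489 of all 21320 features were called higher and 572 and 584 lower. When each array was centred on its median and loess was left out, all features had a median of 0.32, and 12821 were called higher and 2066 lower (659 and 949 with loess). In that setting 8 members were called, 7 higher and 1 lower. Relative to that median, Sh2d1a was then at 0.78 and Sh2d1b1 at -0.63, Slamf7 stayed below it at -0.12, and Ly9 and Cd244 turned to 0.11 and 0.03. Slamf6 moved from 0.17 above the median of all features with loess to 0.43 above it, Cd48 from 0.08 to 0.38, Cd84 from 0.05 to 0.23 and Slamf1 from 0.17 to 0.24.

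**Figure D4:**
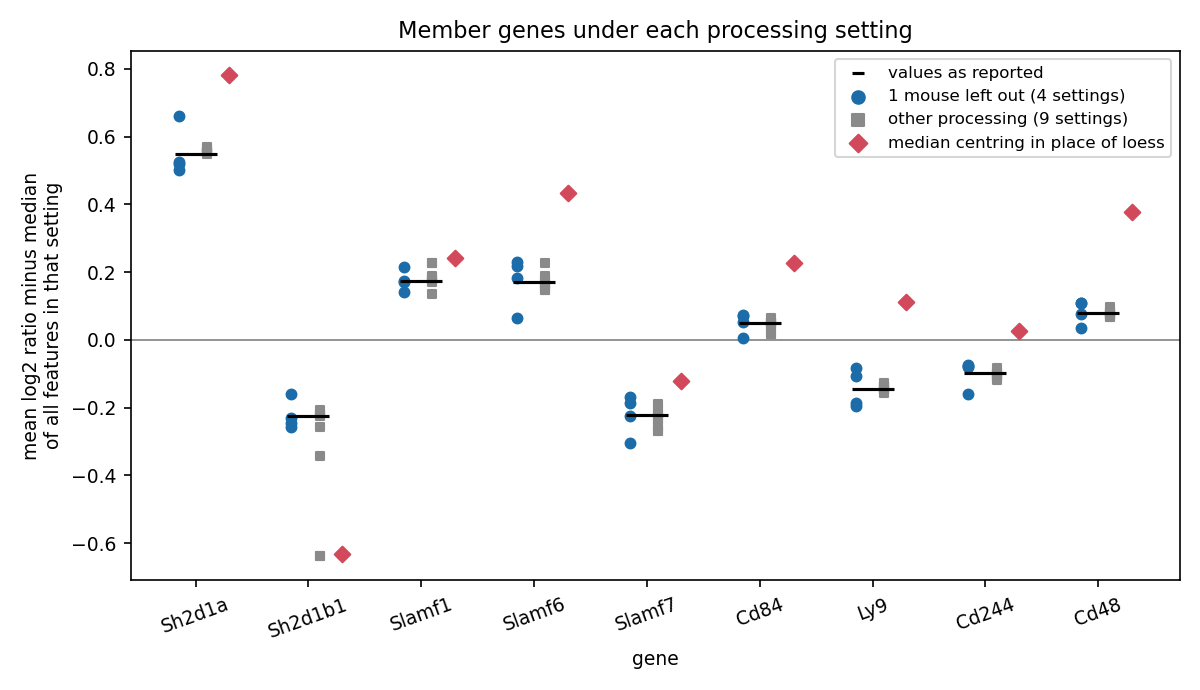
Mean log2 ratio of each member minus the median of all features in the same setting, for the values as reported, with 1 mouse left out, with other processing and with median centring in place of loess. With median centring Ly9 and Cd244 cross 0, and Slamf6 and Cd48 move to 0.43 and 0.38.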

How the data were processed

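The deposited scanner files hold mean and background intensity in both channels and a log10 ratio, made by the authors with Agilent Feature Extraction 10.2.1.3, per the file headers. The deposited values per probe are log2 ratios. They differed by at most 5.1e-05 from the mean over spots of the software's processed ratio, with column medians of -0.15, -0.06, -0.03 and -0.03. The 4 arrays lay on 1 slide, so slides could not be compared.

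Intensities were corrected with normexp (offset 50) and loess-normalized within arrays in limma 3.58.1 (R 4.3.3), without control or outlier-flagged spots. A probe was kept if 1 and the same channel was well above background on 3 or more of the 4 arrays, which left 27603 of 41174. Names came from transcript accessions matched to RefSeq GRCm38.p6 (24844 probes matched, 16330 kept their accession), used for names and neighbours only. The brightest kept probe stood for a gene. Mean ratios were tested against 0 with lmFit and eBayes and Benjamini-Hochberg adjustment. Values are mean ± SD over mice. The p-values set the mean ratio against the spread between these mice, which eBayes draws toward that of all features.

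The members and lists were chosen with earlier results of these data known. Named genes were all members, up to 4 called genes per list or the 2 brightest where none was called, and the 5 genes nearest to Sh2d1a, without clone or predicted names. The 15 alternatives covered background, normalization, filter, probe choice, variance model, threshold, ratio source and each mouse left out. The steps were tested on simulated intensities, where false calls were more frequent than the threshold sets and part of the smallest changes was missed. Protein and probe sequences were not used here.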

Additional observations from a re-analysis of the deposited data

Results flagged for a closer look

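A mouse far from the others was found for 4 of 14 kept member probes and 6 of 32 probes and genes examined by Dixon's test, which flags about 1 in 20 groups of 4 by chance. Sh2d1a read 0.27 in mouse 1 against 0.65 to 0.73 in the others. The dimmer Cd48 probe read 0.16 in mouse 1 against 0.07 to 0.08. Cd244 read 0.11 in mouse 2 against -0.15 to -0.11 on its brightest probe, and 0.028 in mouse 1 against -0.12 to -0.11 on the second. Among the marker genes, Cd163 read -0.82 in mouse 1 against -1.46 to -1.37, and C1qa read -1.26 in mouse 3 against -0.86 to -0.78. Mouse 1 was the distant one in 4 of these 6 cases, and the cause was not tested. Over all features, 38.2% had their highest and 29.0% their lowest ratio in mouse 1. Dixon's test was not run over all features.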

How the results depend on the processing

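With each mouse left out in turn, called members ranged from 0 to 2, called member probes from 0 to 2, signalling partners from 0 to 5, follicular helper genes from 0 to 4, T cell genes from 0 to 4, natural killer and NKT genes from 0 to 3, macrophage genes from 0 to 8, and B cell and exocrine genes stayed at 0. Without mouse 1, 844 of all 21320 features were called higher and 1323 lower. The zeros came without mouse 2, 3 or 4. Without those mice 3, 3 and 2 members had an unadjusted p under 0.05 in limma, beside 4343, 5732 and 4299 of all 21320 features. With the scanner software's ratio or the authors' series table no member, member probe, signalling partner, T cell or natural killer gene passed (0 each). In both, 1 follicular helper gene passed, beside 477 and 489 of all 21320 features called higher and 572 and 584 lower. At an unadjusted p under 0.05 in limma there were 3 members in both, beside 6285 and 6286 of all features. With arrays centred on their medians and no loess, the counts were 8 members (7 higher, 1 lower), 11 member probes (10 higher, 1 lower), 19 signalling partners (all higher, against 1 higher and 3 lower with loess), 13 follicular helper genes (12 higher, 1 lower), and 14 T cell, 8 natural killer and NKT and 10 B cell genes (all higher), in a setting that moved the median of all features to 0.32. Of the macrophage genes 7 were called, 3 higher and 4 lower, against 6 lower with loess. There the sign turned for Ly9 (0.44), Cd244 (0.35), Dok1 (0.25), Slamf8 (0.24) and Cd1d1 (0.27), all called higher. It also turned for Sh3bp2 (0.065) and Slamf7, which were not called. At an adjusted p under 0.1, 3 members and 3 member probes passed (2 higher and 1 lower each) and 7 follicular helper genes (6 higher, and Il21r lower). Of all 21320 features 2151 were called higher and 2055 lower at that threshold. T cell calls fell to 1 with a normexp offset of 16 and with an intensity trend and robust estimation together in the variance model. In the other settings the counts stayed within 1.5 times the reported ones. The dim Sh2d1b1 and second Slamf1 probes are limited by signal over background. The labels give 1 group, and the fit was paired, since each ratio sets both nodes of 1 mouse against each other.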
